A study of Saccharomyces cerevisiae with 16 samples.

Results

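A strain of the budding yeast Saccharomyces cerevisiae that lacks Yap1 was followed through the first 20 min of exposure to benomyl, a drug that binds tubulin and depolymerises microtubules. The 4 arrays of this strain (DeltaYAP1) at 2, 4, 10 and 20 min are described here, of 16 arrays in the series. They were taken as the samples whose labels give this strain and these times. The comparison strains were DeltaPDR1, deleted for PDR1, and WT, each with 4 arrays at the same times. On every array RNA of treated cells was set against RNA of untreated cells of that strain, and each strain and time had 1 array. A 30 s array of DeltaYAP1 is given beside the 4 for single genes. The labels give no other allele, no strain background, no dose of benomyl and no growth medium. Of 6321 features on the array, 5660 had a value on at least 3 of the 4 DeltaYAP1 arrays and form the set that was tested. A further 56 features had 2 values, 456 had 1 and 149 had none.

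Yap1 is a basic leucine zipper transcription factor that accumulates in the nucleus when its cysteines are oxidised or modified by reactive compounds. It switches on genes for glutathione and thioredoxin metabolism, for reductases and for exporters such as FLR1. Pdr1 and its paralog Pdr3 are zinc cluster activators of the pleiotropic drug resistance network, which holds ABC transporters such as PDR5 and SNQ2 and lipid genes such as ICT1. Hsf1 drives chaperone genes when proteins misfold.

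All values are log ratios read as cells with benomyl over cells without it and treated as log2, although no source names the base. Natural logarithms are possible, would make each fold larger and would keep signs and adjusted p. The direction rests on channel 1 being the treated sample, and would turn in every gene if the ratio ran the other way. The means of the DeltaYAP1 arrays lay between -0.00039 and 7e-05 and their medians were 0.002, -0.024, -0.04 and 0.019 at 2, 4, 10 and 20 min, so values are relative to the average of an array and a global change is not visible. The standard deviation over probes was 0.174, 0.233, 0.238 and 0.302 at these times. Between 5476 and 6128 probes had a value, and the number of arrays limits the precision. A dye bias that is constant for a gene cannot be told apart from its response. The YAP1 probe read 0.02, 0.29, -0.06 and 0.04 on the 4 arrays, but both channels hold RNA of the same deletion strain, so these values check nothing about the deletion.

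Few transcripts reached 2-fold without Yap1, and among the features with at least 3 values more were up than down. At 30 s, 1 gene was at least 2-fold up in DeltaYAP1 (0.0182% of the features measured). The 2 min array had 4 such genes (0.0708%), the 4 min array 10 (0.178%), the 10 min array 17 (0.315%) and the 20 min array 22 (0.389%). At 2, 4, 10 and 20 min DeltaPDR1 had 1, 22, 50 and 66 such genes and WT had 6, 24, 72 and 143, among the features measured in at least 3 DeltaYAP1 samples. Of these features, DeltaYAP1 had values for 5648, 5626, 5397 and 5660 at these times. DeltaPDR1 had values for 3331, 4694, 4984 and 4662, and WT for 5527, 5267, 4959 and 5368. The counts of the strains therefore have different bases. At least 2-fold down in DeltaYAP1 were 2 genes at 2 min (0.0354%), 0 at 4 and at 10 min, and 6 at 20 min (0.106%). Counting also the features with fewer DeltaYAP1 values, the 20 min array held 30 genes up and 32 down. Each count comes from 1 array and was not tested. With arrays scaled to a common spread 25 genes were up and 15 down at 2 min and 47 up and 1 down at 10 min.

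**Figure D1:**
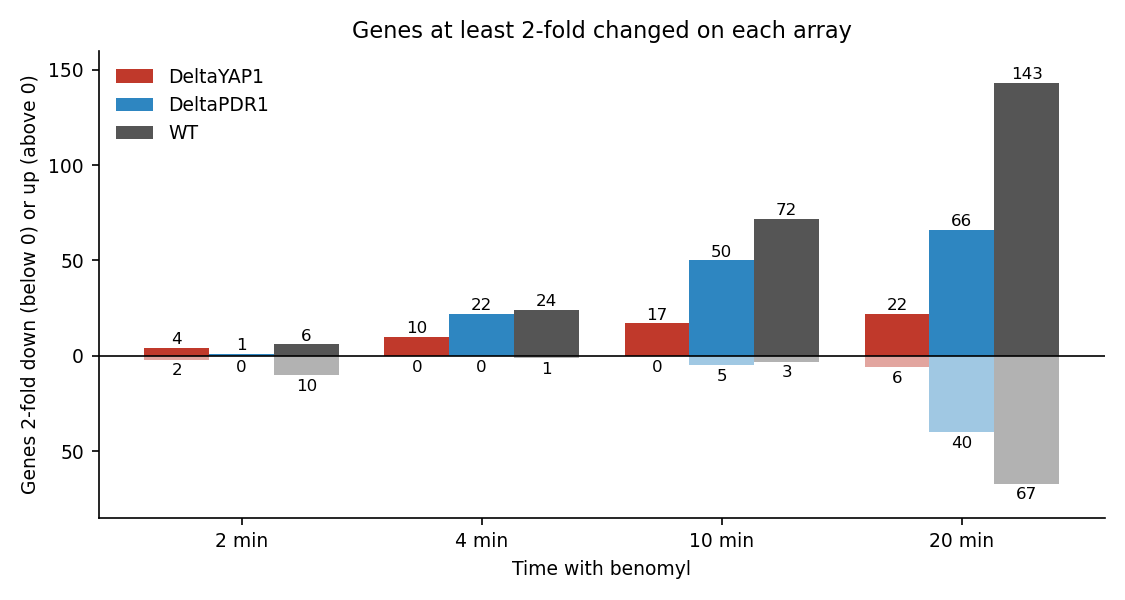
Number of genes at least 2-fold up (bars above 0) or down (paler bars below 0) on the array of each strain at 2, 4, 10 and 20 min, among features with at least 3 of 4 DeltaYAP1 values. DeltaYAP1 reached 22 up and 6 down at 20 min, against 66 and 40 in DeltaPDR1 and 143 and 67 in WT. Of these features, 5660 had a value at 20 min in DeltaYAP1, 4662 in DeltaPDR1 and 5368 in WT.

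In all, 38 genes were at least 2-fold up on 1 or more of the 4 DeltaYAP1 arrays, 0.671% of the 5660 features. Of these, 28 passed 2-fold on 1 array, 6 on 2 arrays, 3 on 3 arrays and 1 on all 4. The gene on all 4 was AVT5, and those on 3 were ATG41, TMA10 and YKR075C. The highest of the 4 values was the one at 2 min for 1 gene, at 4 min for 7 and at each later time for 15. The 8 genes at least 2-fold down on any array were so on a single array each.

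Over 2 to 20 min, 6 of 5660 features passed the test and all 6 rose (0.106%; limma, Benjamini-Hochberg adjusted p under 0.05; 519 features had an unadjusted p under 0.05). They were ATG41, BTN2, AVT5, ICT1, ROG3 and MIG2. The fit pooled the spread of the 12 arrays of the 3 strains, with neighbouring times (2 and 4 min, 10 and 20 min) in place of repeats. Times are not biological replicates, and nothing in the labels says that separate cultures were used, so p measures the spread between these samples. Fitted to its own 4 arrays alone with an early and a late mean, called the own arrays below, DeltaYAP1 gave 65 calls, 54 up and 11 down (1.15%), which included all 6. With 1 mean over the same 4 arrays, an alternative chosen after the data were seen, it gave 8 calls, all up, and BTN2 was not among them. With scaled arrays 9 passed, all up, and without 1 array the count lay between 4 (without DeltaYAP1 at 4 min) and 12 (without WT at 10 or at 20 min). Over the same times the standard deviation of an array reached 0.412 in DeltaPDR1 and 0.535 in WT, against at most 0.302 in DeltaYAP1, and the part of this in the lower count was not tested.

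ATG41, a protein of autophagosome formation, had the largest mean of the 6. It stood at 0.92, 2.26, 2.17 and 2.14 in DeltaYAP1 at 2, 4, 10 and 20 min, after -0.12 at 30 s. The gene was thus above 4-fold from 4 min on and lower at 2 min than at the later times. Its mean over the 4 arrays was 1.87 ± 0.21 (SE of the fit), 3.66-fold, with an adjusted p of 0.00266 in limma. DeltaPDR1 had 1.69, 1.63, 0.80 and -0.40 at the same times, a course that came down where DeltaYAP1 stayed up. At 10 and 20 min DeltaYAP1 was above DeltaPDR1 by 1.95 (95% interval 1.04 to 2.86), which did not pass after adjustment (adjusted p = 0.0622 in limma). The gene had no value on the WT arrays. ICY1, its paralog, was at -0.28, 0.46, 1.0 and 0.74 in DeltaYAP1 and did not pass.

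AVT5, a putative amino acid transporter of the vacuolar AVT family, had similar values at all 4 times. It read 1.30, 1.07, 1.02 and 1.32 in DeltaYAP1, against -0.44 at 30 s, and its 4 values from 2 min on lay close together. The mean over the 4 arrays was 1.18 ± 0.10 (SE of the fit, adjusted p = 0.00141 in limma), 2.26-fold. ROG3, an alpha-arrestin that binds the ubiquitin ligase Rsp5, was as steady at 1.01, 0.97, 0.84 and 1.03. Its mean was 0.96 ± 0.10 (adjusted p = 0.00141 in limma). Both were also the 2 genes of 5614 that passed at 2 and 4 min (0.0356%; adjusted p = 0.0416 for each in limma; 207 at an unadjusted p under 0.05). The early call was lost for both without any 1 of the 4 DeltaYAP1 arrays or without the DeltaPDR1 array at 10 or at 20 min, when 0 genes passed. With array medians subtracted 0 genes passed early as well. Over 2 to 20 min ATG41, AVT5 and ROG3 passed under all alternatives that gave a value, 21 for ATG41 and 22 for AVT5 and ROG3.

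ICT1, which acylates lysophosphatidic acid, was at 0.83, 0.84, 1.44 and 1.0 in DeltaYAP1. All 4 values were above the 0.20 of the 30 s array, and the highest was at 10 min. The mean over the 4 arrays was 1.03 ± 0.14 (SE of the fit, adjusted p = 0.00485 in limma). MIG2, a zinc finger repressor of the glucose repression pathway, was at 0.83, 0.38, 0.60 and 0.85, with a mean of 0.67 ± 0.10 (adjusted p = 0.0263 in limma). ICT1 did not pass without the DeltaYAP1 array at 2, 4 or 10 min (adjusted p = 0.0872, 0.116 and 0.0577 in limma), and MIG2 did not pass without any 1 of the 4 DeltaYAP1 arrays (adjusted p = 0.0577 to 0.305). YKR075C, whose function is not known, was at 1.10, 2.13 and 1.12 at 2, 4 and 20 min with no value at 10 min, and did not pass (adjusted p = 0.0809 in limma).

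**Figure D2:**
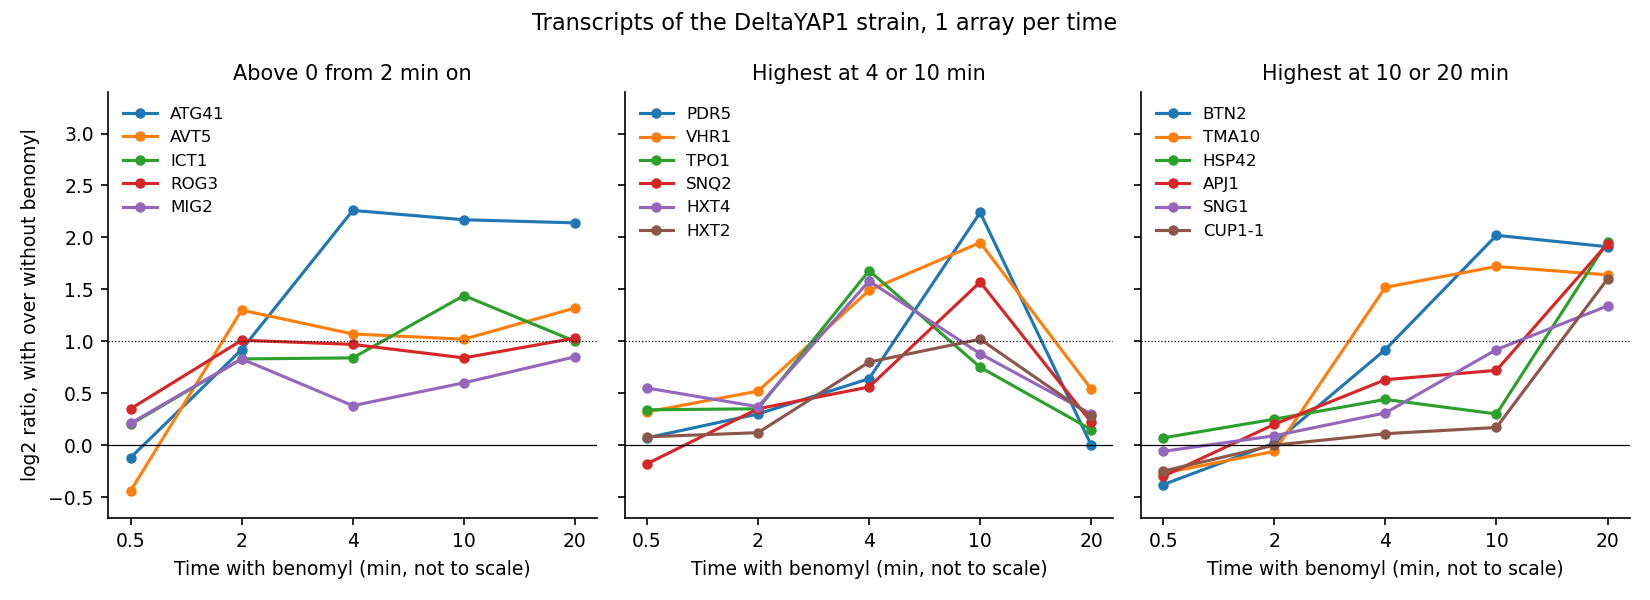
Log2 ratio with over without benomyl in DeltaYAP1 at 0.5, 2, 4, 10 and 20 min (1 array per time, times evenly spaced) for 17 transcripts in 3 panels. AVT5 and ROG3 are flat from 2 min, PDR5 and VHR1 peak at 10 min and are at 0.00 and 0.54 at 20 min, and HSP42 and CUP1-1 stand high on the 20 min array, at 1.96 and 1.60.

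At 10 and 20 min, 6 of 5397 features passed and all rose (0.111%; limma; 438 at an unadjusted p under 0.05): ATG41, BTN2, ICT1, AVT5, ROG3 and MDJ1. With the own arrays 56 passed, 48 up and 8 down, and with scaled arrays 15 passed, 12 up and 3 down. The count was 2 without the DeltaYAP1 array at 20 min, 3 without that at 2 or at 4 min, and 14 without the WT array at 10 or at 20 min. BTN2, MDJ1 and ICT1 had late means over 2 arrays of 1.97 ± 0.20, 0.78 ± 0.12 and 1.22 ± 0.19 (SE of the fit), and BTN2 passed under all 20 alternatives. The other 5 did not pass without the DeltaYAP1 array at 10 min or without that at 20 min, which leaves 1 late array. For MDJ1 the late effect was then 0.67 or 0.89, and for ICT1 1.0 or 1.44. AVT5, ROG3, ICT1 and MDJ1 also did not pass without the DeltaYAP1 array at 2 or at 4 min. ICT1 and MDJ1 were lost without any 1 of the 4 DeltaPDR1 arrays as well. ATG41 did not pass with robust variance shrinkage (adjusted p = 0.109 in limma), nor AVT5 with scaled arrays (adjusted p = 0.0703). MDJ1 was lost with the trend along the probe number subtracted (adjusted p = 0.0569). Between the late and the early arrays, 0 of 5351 features passed in limma (108 at an unadjusted p under 0.05), and 1 passed with the own arrays, BTN2. Differences between times are therefore given below as values without a call.

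Most targets of Pdr1 and Pdr3 stood above 0 late. Of 14 measured late, 12 had a mean above 0, with a median of 0.34 against -0.006 over all 5397 features. The median over the list was 0.29, 0.45, 0.50 and 0.10 in order of time. PDR10 and HXT11 had no value at 10 min. The medians at 4 and 10 min thus cover different members and do not show which time was higher. The late median was also above 0 in the other strains, at 0.24 in DeltaPDR1 over 13 members and 0.66 in WT over 13. Of the 16 tested over 2 to 20 min 1 passed, ICT1, where 0.106% of all features did. With the own arrays 7 passed upward, where 0.954% of all features did.

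PDR5, the main ABC drug exporter of the plasma membrane, read 0.30, 0.64, 2.24 and 0.00 in DeltaYAP1, so that its late mean of 1.12 ± 0.37 rests on the 10 min array (adjusted p = 0.429 in limma). It read 0.08, 0.18, 0.29 and 0.23 in DeltaPDR1 and 0.21, 1.35, 1.53 and 1.15 in WT. The value at 20 min was at 0 in DeltaYAP1 and above 1 in WT, while the 10 min value was the highest of the 3 strains. SNQ2, an exporter with both Pdr1 and Yap1 among its known activators, was at 0.35, 0.56, 1.57 and 0.22 in DeltaYAP1. The exporter YOR1 had 0.44, 0.44, 1.04 and -0.17. TPO1, which exports polyamines, peaked earlier, with 0.35, 1.68, 0.75 and 0.15. CIS1 was likewise highest at 4 min, with 0.59, 1.62, 0.19 and 0.52. None of these passed over 2 to 20 min with the pooled spread (adjusted p = 0.233 to 0.537 in limma). The exporter TPO4 was highest at 20 min, with 0.29, 0.25, 0.48 and 0.74. PDR3 itself was measured at 4 and 10 min only, at 0.37 and 0.60, and PDR1 was between -0.23 and 0.02.

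Of 13 targets tested against DeltaPDR1 at 10 and 20 min 1 passed as lower (0.754% of all features did), and of 13 against WT 2 did (1.0%). GRE2, a methylglyoxal reductase, was at 0.36 and 0.28 in DeltaYAP1 at 10 and 20 min, against 3.14 and 3.82 in DeltaPDR1 and 4.74 and 5.0 in WT, and was lower than in both (adjusted p = 0.0177 and 0.000805 in limma). Its call against DeltaPDR1 was lost without the DeltaYAP1 array at 10 or at 20 min, without the DeltaPDR1 array at 20 min, with scaled arrays, with robust variance shrinkage and without the 3 arrays that vary most along the probe number (adjusted p = 0.113 to 0.532). CIS1, at 0.19 and 0.52 in DeltaYAP1 and 3.84 and 2.68 in WT, was lower than in WT (adjusted p = 0.00169 in limma), but not with scaled arrays (adjusted p = 0.172). The late differences of ICT1, PDR5 and SNQ2 from DeltaPDR1 did not pass. ICT1 was higher in DeltaYAP1 by 1.22 (95% interval 0.63 to 1.81; adjusted p = 0.0637 in limma), where DeltaPDR1 had -0.16 at 10 min and 0.17 at 20 min. For PDR5 the difference was 0.86 (-0.27 to 1.99; adjusted p = 0.569). For SNQ2 it was -0.90 (-1.90 to 0.10; adjusted p = 0.521), with 1.46 and 2.13 in DeltaPDR1 at 10 and 20 min. Against WT the late differences of ICT1 (0.03, -0.56 to 0.62) and PDR5 (-0.21, -1.34 to 0.91) did not pass, which does not show that the strains are alike in these genes.

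Several hexose transporters had their highest values at 4 or 10 min. HXT4 was at 0.37, 1.58, 0.88 and 0.30 in DeltaYAP1, HXT3 at 0.06, 0.83, 0.93 and 0.23, and HXT2 at 0.12, 0.80, 1.02 and 0.28. HXT6 and HXT7, which are nearly identical and may share signal, followed with 0.74 and 0.57 at 4 min. The values of all 5 were highest at 4 or 10 min and at most 0.33 at 20 min. Over the 17 transporters and glucose sensors of the list the median was -0.05, 0.28, 0.23 and 0.08 at 2, 4, 10 and 20 min. None passed in limma with the pooled spread, and 3 of 17 passed upward over 2 to 20 min with the own arrays (HXT4, HXT2 and HXT3), where 0.954% of all features did. The late median was 0.17 in DeltaYAP1, 0.17 in DeltaPDR1 over 12 members and 0.15 in WT. SUC2, the invertase gene, was at 0.76 at 4 min and between -0.08 and 0.02 at the other times.

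VHR1, an activator of biotin uptake and synthesis genes, was at 0.52, 1.49, 1.95 and 0.54 in DeltaYAP1. In DeltaPDR1 it was at 0.33, 0.25 and 0.01 at 4, 10 and 20 min, and in WT at 0.75, 1.28, 1.67 and 0.81. DeltaYAP1 and WT thus had similar courses with a peak at 10 min, and the late difference between them was 0.00 (-0.94 to 0.94). The mean in DeltaYAP1 was 1.13 ± 0.22 (adjusted p = 0.0893 in limma). The 6 measured biotin genes, VHR1 included, had a median of 0.19 at 10 min and -0.15 at 20 min. Their late median was -0.05. GDH3, a glutamate dehydrogenase, stood at 0.61, 0.44, 0.51 and 0.49 and did not pass either (adjusted p = 0.0809 in limma). STB2 was at 0.18, 0.37, 0.70 and 0.42, and its late difference was 0.01 both from DeltaPDR1 (-0.38 to 0.40) and from WT (-0.37 to 0.40).

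Heat shock proteins and chaperones stood above 0 at 10 and 20 min. All 24 measured late had a mean above 0, from 0.01 to 1.97, with a median of 0.38. The median by time was 0.01 and 0.05 on the early arrays and 0.34 on each of the late ones. Of the 24, 2 passed at 10 and 20 min, BTN2 and MDJ1, where 0.111% of all features did, and 8 passed upward with the own arrays, where 0.889% did. Subtracting array medians left all 24 above 0.

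BTN2, which sorts misfolded proteins into deposits, was at 0.02, 0.92, 2.02 and 1.91 in DeltaYAP1 after -0.38 at 30 s, with a mean of 1.22 ± 0.14 over 2 to 20 min (adjusted p = 0.00141 in limma). That call was lost with scaled arrays (adjusted p = 0.0507), with time as a block (adjusted p = 0.274) and with 1 mean over the 4 DeltaYAP1 arrays (adjusted p = 0.289). It read 0.74, 1.19, 1.55 and 1.60 in DeltaPDR1 and 0.28, 0.85, 4.54 and 4.17 in WT. The 3 strains overlapped at 2 and 4 min, and at 10 and 20 min WT stood far above both deletion strains. BTN2 rose late in DeltaYAP1 (adjusted p = 0.000883 in limma), and was lower than in WT by a log2 difference of -2.39 (-2.99 to -1.79; adjusted p = 0.000494). With scaled arrays this difference was -1.36 and did not pass (adjusted p = 0.599). From DeltaPDR1 it differed by 0.39 (-0.20 to 0.99; adjusted p = 0.635).

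Besides BTN2, 3 of the 24 members of the list were at least 2-fold up on the 20 min array, where 0.389% of all features were. The small heat shock protein HSP42 was at 0.25, 0.44, 0.30 and 1.96, the Hsp40 protein APJ1 at 0.20, 0.63, 0.72 and 1.94, and the disaggregase HSP104 at -0.08, 0.23, 0.36 and 1.40. SIS1, an essential Hsp40, reached 0.59 and 0.94 at 10 and 20 min. MDJ1, the Hsp40 of the mitochondrial matrix, was at 0.01, 0.04, 0.89 and 0.66, and the matrix disaggregase HSP78 at -0.49, 0.06, 0.46 and 0.90. AHA1, a cofactor of Hsp90, was at 1.02 at 10 min and 0.30 at 20 min. Lowest of the list were HSP26, SSE2 and HSF1, with late means of 0.01, 0.07 and 0.08. Over the 19 members measured in both strains the late median was 0.28 in DeltaYAP1 and 0.62 in WT.

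Other transcripts that were high on the 20 min array have varied products. CUP1-1 and CUP1-2, near-identical copies of the metallothionein gene that may share signal, were at 1.60 and 1.73, after 0.17 and -0.28 at 10 min. SPI1, a cell wall protein that is also on the list of general stress genes below, was at 1.50 after 0.06. TMA10, a ribosome-associated protein, was at -0.06 at 2 min and at 1.52, 1.72 and 1.64 from 4 min on. DST1, the transcription elongation factor TFIIS, was at -0.19, 0.59, 1.47 and 1.24. Neither TMA10 nor DST1 passed late with the pooled spread (adjusted p = 0.110 and 0.0718 in limma). General stress genes under Msn2 and Msn4 had a late median of 0.12 over 20 members, of which 0 passed with the pooled spread and 2 upward with the own arrays (ALD4 and GPP2), where 0.889% of all features did. ALD4, a mitochondrial aldehyde dehydrogenase, was at 0.23, 0.28, 1.64 and 0.25, and GPP2, a glycerol phosphatase, had a late mean of 0.62. Of 21 members measured on at least 3 arrays, 3 were at least 2-fold up on an array, where 0.671% of all features were. They were ALD4, SPI1 and RTN2, the last at 1.07 at 10 min and -0.17 at 20 min. HSP12 and CTT1, much used markers of this response, had late means of 0.12 and 0.13.

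No feature passed downward in DeltaYAP1 in limma with the pooled spread, where 519 had an unadjusted p under 0.05 in either direction. With the own arrays 11 passed downward over 2 to 20 min (0.194%), and with scaled arrays 3 did late, but 0 passed downward with 1 mean over the same 4 arrays. RNR3, a large subunit of ribonucleotide reductase, was at -0.26, -0.14, -0.39 and -1.12, and RNR1, the other large subunit, at -0.14, -0.03, -0.26 and -1.09. The G1 cyclin PCL1 was at -0.20, -0.40, -0.43 and -1.11. All 3 were lowest on the 20 min array. RNR3 and PCL1 passed downward over 2 to 20 min with the own arrays (adjusted p = 0.0285 and 0.0121), and neither did with 1 mean. RNR1 was at -0.66 and -2.05 in WT at 10 and 20 min, but its late difference from WT did not pass (0.68, -0.12 to 1.47; adjusted p = 0.704 in limma). HMG1, an HMG-CoA reductase of sterol synthesis, was at 0.03, -0.16, -0.59 and -0.91. At 2 min the lowest values belonged to SAR1, the GTPase of COPII vesicles, at -1.20, and ADE6, a purine synthesis enzyme, at -1.11, and both were closer to 0 at 4 and 10 min.

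The 8 core histone genes had small negative values. Their late means lay between -0.45 and -0.30, all below 0, with a median of -0.37. By time the median was -0.06, -0.13, -0.41 and -0.36. The late median was -0.52 in DeltaPDR1 over 7 genes and -0.50 in WT. No histone gene passed in DeltaYAP1 with either spread, and no difference from either strain passed. Histone genes of a type are alike in sequence and may share signal. Ribosome biogenesis genes had 3 of 39 late means above 0 (4 with array medians subtracted) and a median of -0.20. This median was -0.08 at 10 min and -0.31 at 20 min, and 0 of 39 passed in either direction late. Cytosolic ribosomal protein genes had 18 of 110 above 0 and a median of -0.09. Genes of the G2/M and M/G1 phases had 1 of 14 above 0 and a median of -0.14.

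The next comparison asked how much of the WT response was present without Yap1. In WT 93 genes averaged at least 2-fold up at 10 and 20 min and were measured late in DeltaYAP1. Of these, 6 averaged at least 2-fold up in DeltaYAP1, a share of 6.45%, where 11 of all 5397 features did (0.204%). The 6 were BTN2, APJ1, VHR1, ICT1, SNG1 and PDR5. The median of the 93 was 0.17 in DeltaYAP1 and 1.37 in WT. Of the 74 also measured in DeltaPDR1, 41 averaged at least 2-fold up there (55.4%), with a median of 1.15. The DeltaYAP1 mean was above 0 for 77 of the 93, where it was for 2612 of 5397 features. Of 11 genes that averaged at least 2-fold down in WT, 0 did so in DeltaYAP1 and 10 were below 0, with medians of -0.48 in DeltaYAP1 and -1.10 in WT. The genes were chosen on WT, so that WT values are high by choice.

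**Figure D3:**
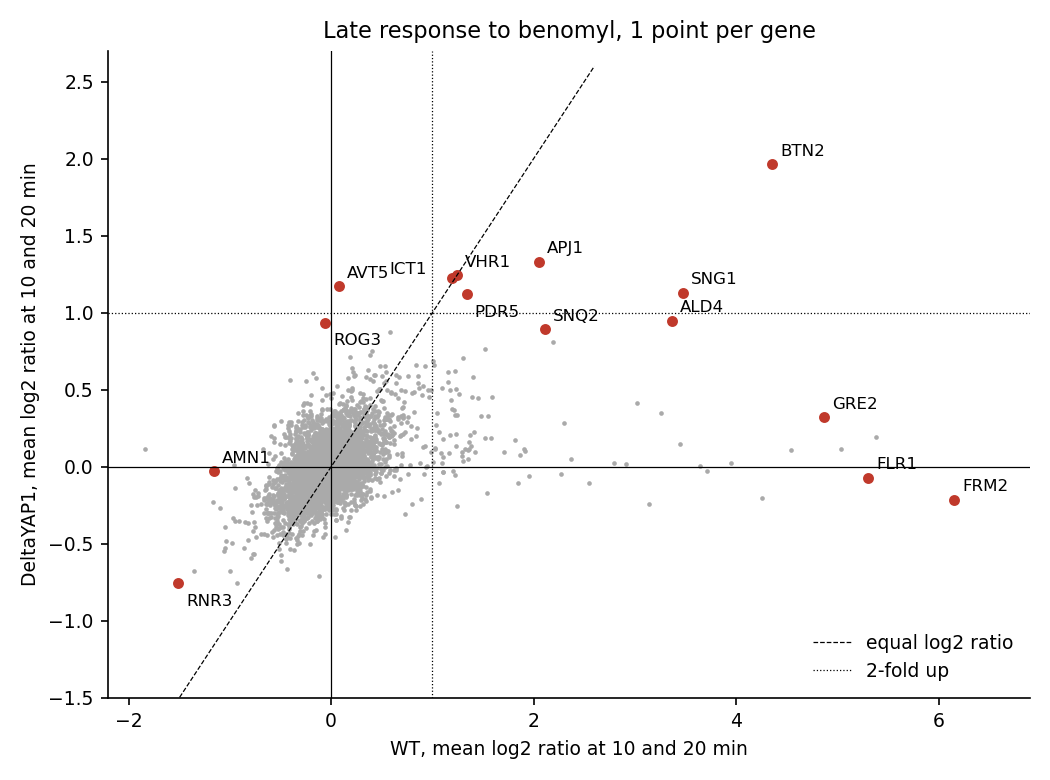
Mean log2 ratio at 10 and 20 min in DeltaYAP1 (vertical axis) against WT (horizontal axis), 1 point per gene for 4796 genes, with named genes in red, a dashed line of equal values and dotted lines at 2-fold up. ICT1 and VHR1 lie on the dashed line, AVT5 and ROG3 above it near a WT value of 0, and FLR1, FRM2 and GRE2 near 0 in DeltaYAP1 with WT values between 4.87 and 6.15.

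By test, 55 of 4796 features differed between DeltaYAP1 and WT at 10 and 20 min (1.15%; limma; 414 at an unadjusted p under 0.05), 48 lower and 7 higher in DeltaYAP1. With the arrays of both strains alone 46 were lower and 3 higher (0.0626%), and with scaled arrays 24 were lower and 1 higher. The count was 22 without the DeltaYAP1 array at 10 min, 31 without that at 20 min, and 106 without the WT array at 10 min. Of 24 Yap1 targets tested, 18 were lower, where 1.0% of all features were. This list, like the others, was chosen with earlier results of these data known, so its share is a description and not a test. Their late median was 0.08 in DeltaYAP1 and 2.16 in WT. FLR1, the exporter tied to benomyl resistance, was at -0.06, 0.12, 0.06 and -0.20 in DeltaYAP1, against 5.48 and 5.12 in WT at 10 and 20 min. SNG1 was the exception among the targets, at 0.09, 0.31, 0.92 and 1.34 in DeltaYAP1 and 3.27 and 3.68 in WT at 10 and 20 min. It was lower than in WT by a log2 difference of -2.34 (-2.98 to -1.70; adjusted p = 0.000839), which did not pass with scaled arrays (-1.58, adjusted p = 0.066). Its late mean of 1.13 ± 0.21 did not pass against 0 (adjusted p = 0.0722 in limma). The transcription factor YRR1 was at 0.37 and -0.72 in DeltaYAP1 at 10 and 20 min, against 2.08 and 1.0 in WT, and passed as lower (adjusted p = 0.0261 in limma). The YRR1 call was lost with the arrays of both strains alone (adjusted p = 0.0742), with scaled arrays (0.309), without the DeltaYAP1 array at 2, 4 or 20 min (0.066 to 0.259), without the DeltaPDR1 array at 10 or 20 min (0.0532) and without WT at 10 min (0.0961).

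Of the 7 genes higher in DeltaYAP1 than in WT (0.146% of the features tested), AVT5 and ROG3 also passed in DeltaYAP1 itself and the other 5 did not. AVT5 had 1.02 and 1.32 in DeltaYAP1 at 10 and 20 min, against -0.12 and 0.27 in WT, a difference of 1.10 (0.65 to 1.55; adjusted p = 0.0285 in limma). In WT its 2 min value was 0.87, so that WT was near DeltaYAP1 at that time. ROG3 had 0.84 and 1.03 in DeltaYAP1, against 0.05 and -0.17 in WT, a difference of 0.99 (0.57 to 1.42; adjusted p = 0.0306 in limma). AMN1, which acts in mitotic exit and daughter cell separation, was at -0.07 and 0.02 in DeltaYAP1, against -0.75 and -1.57 in WT, a difference of 1.13 (0.65 to 1.62; adjusted p = 0.0261 in limma). The others were JEM1, a J protein of the endoplasmic reticulum, with 0.53 and 0.59 in DeltaYAP1 and -0.57 and -0.25 in WT, and YJR115W, YAR064W and IRC4, with differences between 0.72 and 0.82. AMN1, JEM1, YJR115W and IRC4 were not called with the arrays of DeltaYAP1 and WT alone. The calls of AVT5 and ROG3 were lost without the DeltaYAP1 array at 2 or at 4 min (adjusted p = 0.0695 and 0.0745 in limma). The 1 gene still called higher without either array was neither of them. With scaled arrays both calls were lost (adjusted p = 0.249 and 0.148). They were also lost without the DeltaYAP1 array at 10 or at 20 min, which leaves 1 late array. The differences were then 1.25 and 0.95 for AVT5 and 1.09 and 0.9 for ROG3.

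Against DeltaPDR1, 40 of 4378 features differed late (0.914%; limma; 459 at an unadjusted p under 0.05), 33 lower and 7 higher in DeltaYAP1 (0.160%). Of 23 Yap1 targets of the same list tested, 16 were lower, where 0.754% of all features were. The count was 9 without the DeltaYAP1 array at 20 min, 13 without that at 10 min and 1 without the DeltaPDR1 array at 20 min. The 7 higher genes, chosen for mention after their values were seen, were FBA1, NOP56, PMA1, ERG1, PSA1, RRD2 and SSN8. FBA1, the aldolase of glycolysis, was at -0.17 and 0.14 in DeltaYAP1 at 10 and 20 min, against -1.30 and -1.40 in DeltaPDR1. PMA1, the proton pump of the plasma membrane, was at -0.05 and 0.01 in DeltaYAP1, against -0.65 and -1.40 in DeltaPDR1. For 6 of the 7 genes the DeltaYAP1 late mean was within 0.4 of 0, and SSN8, which encodes cyclin C, was at 0.52. The comparisons with DeltaPDR1 and with WT share the DeltaYAP1 arrays.

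**Figure D4:**
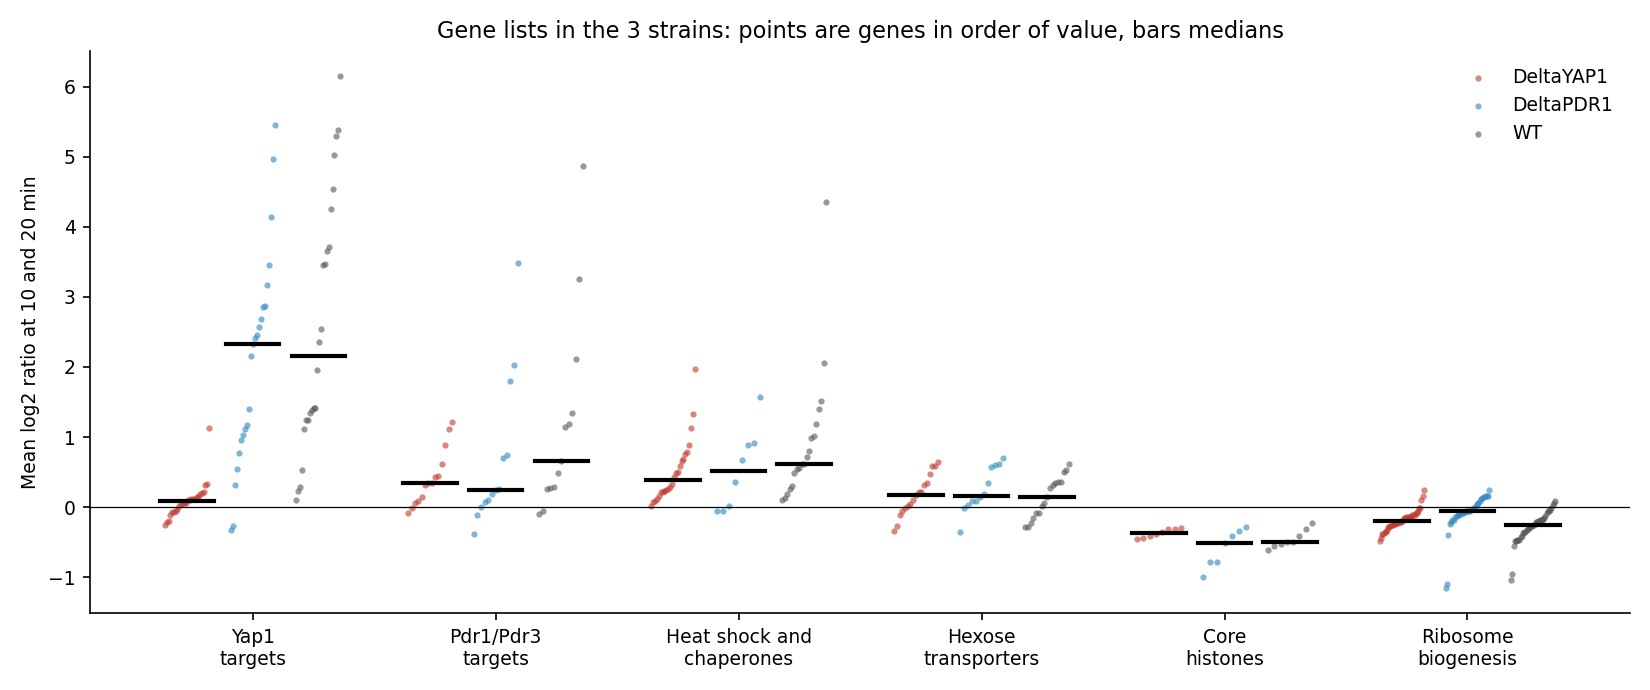
Mean log2 ratio at 10 and 20 min of the members of 6 gene lists in DeltaYAP1, DeltaPDR1 and WT, with 1 point per gene in order of value and a bar at the median. The Yap1 targets have a median of 0.08 in DeltaYAP1, 2.33 in DeltaPDR1 and 2.16 in WT, while the core histones have -0.37, -0.52 and -0.50.

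The other lists had late medians in DeltaYAP1 between -0.16 and 0.18, against -0.006 over all features. Late medians were 0.03 for the aryl-alcohol dehydrogenases (1.27 in WT), 0.13 for sulphate assimilation and methionine, 0.10 for amino acid synthesis under Gcn4, 0.18 for glutamate and ammonium metabolism, 0.01 for oxidative phosphorylation and -0.02 for mitochondrial ribosomal proteins. They were -0.05 for the proteasome and Rpn4 (0.18 in WT), 0.02 for mating genes (-0.31 in WT over 15 members), -0.16 for ergosterol genes, -0.07 for the iron regulon, -0.05 for the phosphate regulon, -0.06 for sphingolipid genes and -0.02 for cell wall genes. The median was -0.06 for G1/S genes, -0.07 for tubulin, spindle and checkpoint genes, and -0.01 for the Yap family and stress transcription factors. In these 16 lists 0 members passed in DeltaYAP1 at 10 and 20 min in limma with the pooled spread. With the own arrays 1 member passed upward in each of sulphate assimilation, mitochondrial ribosomal proteins and oxidative phosphorylation, and downward 2 G1/S genes and 1 ergosterol gene did. Over all features these shares were 0.889% up and 0.148% down. The genes for tubulin, to which benomyl binds (TUB1, TUB2 and TUB3), were between -0.33 and 0.26 on the 4 DeltaYAP1 arrays, and TUB1 was between -0.09 and 0.02. RPN4, the activator of proteasome genes, was at -0.14, 0.66, -0.08 and -0.04, above 0 at 4 min alone.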

How the data were processed

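The members and gene lists were chosen with earlier results of these data known. Spotted arrays with 2 channels gave 1 column of log ratios per array, which the authors deposited and which were taken as log2. Per the labels, channel 1 held RNA of a strain with drug and channel 2 RNA of that strain without it. Scanner, dye assignment, background correction, normalisation and spot filter are not given in the sources used here; array means near 0 show centring. Intensities were not used here. Of 6338 probes 5628 had 1 gene symbol, 0 had several and 710 had none. Probes of 17 genes with several were averaged, and 5 named probes were not in the RefSeq annotation used to update symbols. No coordinates or sequences are given; promoter sequences were not used here.

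The 12 arrays of 3 strains at 2, 4, 10 and 20 min were fitted with limma 3.58.1 (R 4.3.3; lmFit, eBayes, two-sided) with 1 mean per strain and phase (early 2 and 4 min, late 10 and 20 min) and no time block, since a block would fill a missing DeltaYAP1 array from other strains. Complete genes had 6 residual degrees of freedom, and shrinkage of variances added 7.04. Features needed at least 3 of 4 DeltaYAP1 values, and both late values for late tests. The threshold was an adjusted p under 0.05 (Benjamini-Hochberg over all features tested). Early and late arrays share 1 spread per gene, so late p are too small if late arrays vary more. The fit was tested on simulated data. Means without either neighbour array assume that the remaining array varies like the others. Named genes were those called, the 8 highest and lowest values on each DeltaYAP1 array, the called and the 3 highest and lowest members of each of 26 lists, a fixed panel of 26 genes, and, of genes 2-fold up in WT, 8 with the highest DeltaYAP1 late mean and 8 with the lowest difference from WT. Genes named for the fit to own arrays, for being higher in DeltaYAP1 than in another strain, or as further list members were chosen after their values were seen.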

Additional observations from a re-analysis of the deposited data

Results flagged for a closer look

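Of a core set of 30 named genes, 29 with 4 DeltaYAP1 values were tested for 1 array that stood apart from the other 3. In 3 of the 29 the gap exceeded Dixon's 95% critical value of 0.829 of the range. Other named genes were not tested in this way. Genes were named in part for extreme values on single arrays, so no chance rate is given. For ATG41 the 2 min value of 0.92 lay below the others (2.26, 2.17 and 2.14), with a gap of 0.909 of the range. For HSP42 the 20 min value of 1.96 lay above the others (0.25, 0.44 and 0.30), with a gap of 0.885 of the range. For RPN4 the 4 min value of 0.66 lay above the others (-0.14, -0.08 and -0.04), with a gap of 0.869 of the range. The arrays are times of a course and not repeats, so a gap can be a change over time.

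Between strains at 10 and 20 min, 55 genes differed between DeltaYAP1 and WT and 40 between DeltaYAP1 and DeltaPDR1 (limma, Benjamini-Hochberg adjusted p under 0.05). Both counts depend on single arrays, with 22 genes against WT without the DeltaYAP1 array at 10 min, and 1 gene against DeltaPDR1 without the DeltaPDR1 array at 20 min.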

How the results depend on the processing

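Counts of calls moved more than the values of the genes. With only the arrays of the strain or strains compared, limma called 65 genes over 2 to 20 min, 8 at 2 and 4 min, 56 at 10 and 20 min, 1 late minus early and 64 against DeltaPDR1. With the 30 s array of the strain subtracted, which by construction puts 1 array's values into every array of that strain, 1290 genes passed over 2 to 20 min, 46 early, 645 late, 117 against WT and 520 against DeltaPDR1, and INA1 turned to 0.04, against -0.44. With array medians subtracted 0 passed early. With scaled arrays 15 passed late, 25 against WT and 19 against DeltaPDR1, and the genes at least 2-fold changed became 25 up and 15 down at 2 min and 47 up and 1 down at 10 min. All probes with a value gave 32 down at 20 min. Without the 3 arrays that vary most along the probe number, chosen after seeing the data, 1 passed early, 3 late and 9 against DeltaPDR1. Leaving out 1 of the 12 arrays gave 4 to 12 calls over 2 to 20 min, 0 to 3 early, 2 to 14 late, 22 to 106 against WT and 1 to 59 against DeltaPDR1. For the 41 gene results followed through 854 alternatives, 719 kept direction and side of the threshold, 82 lost the call, 52 gained it and 1 reversed; the cause was not tested. All 6 genes called over 2 to 20 min were also called with the own arrays and an early and a late mean, as were 45 of 55 against WT and 40 of 40 against DeltaPDR1. With time as a block, which pairs the strains by time, 7 genes passed over 2 to 20 min, and with 1 mean over the 4 DeltaYAP1 arrays, added after seeing the data, 8 did; BTN2 did not pass under either (adjusted p = 0.274 and 0.289). Late results have no fit with time as a block. Each strain and time had 1 array, which limits what can be called; log base, direction, dye and spot intensity remain unknown.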

Other observations

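A probe for AI2, an intron-encoded maturase gene of the mitochondrial genome, had the highest DeltaYAP1 value at 2 min. It was at 1.67 at 30 s and at 1.36, 0.16, -0.04 and 0.28 at 2, 4, 10 and 20 min in DeltaYAP1, against 0.50 at 30 s and -2.16, -0.62, -2.69 and -0.98 in WT. DeltaYAP1 was above WT at every time in this gene. The mean in DeltaYAP1 did not pass (0.44, adjusted p = 0.733 in limma). AI3, another such gene, was at 0.92, 0.04 and 0.42 at 2, 10 and 20 min in DeltaYAP1, after -0.78 at 30 s.

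Several genes that passed 2-fold at 20 min in DeltaYAP1 did so, or nearly so, at the same time in WT. STE20, a kinase of the pheromone and filamentation pathways, was at 1.24 in DeltaYAP1 and 1.33 in WT, CMK2, a calmodulin-dependent kinase, at 1.12 in DeltaYAP1 and 1.25 in WT, and ADH5, an alcohol dehydrogenase, at 1.34 in DeltaYAP1 and 0.99 in WT. At 10 min all 3 were between -0.13 and 0.08 in DeltaYAP1 and between -0.03 and 0.34 in WT. In DeltaPDR1 they were at 0.30, -0.07 and 0.25 at 20 min. These are single arrays, the genes were chosen after their values were seen, and the differences between strains at 20 min alone were not tested.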
